A study of Mus musculus with 15 samples.

Results

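The heat shock chaperone genes followed here are Hspd1, Hspe1, Hspa5, Hspa8, Hsph1, Hsp90aa1, Dnaja1, Dnajb1 and Hspb1, with Hsf1, the gene of the transcription factor that drives many of them, as the last of the 10 genes listed. A member was taken as the probe set whose annotated symbol is exactly that gene, and where a gene had several, as the brightest of them by its mean. By that rule 9 of the 10 genes were measured, out of 19938 genes with a probe set of their own. Hsf1 matched no probe set and is not analysed here.

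Chaperones bind proteins that are unfolded or partly folded, keep them from aggregating and help them reach their native shape. HSP70 proteins hold and release clients in an ATP cycle that J-domain proteins start and nucleotide exchange factors such as HSP110 complete, HSP90 matures kinases and steroid receptors, HSP60 with HSP10 encloses proteins in the mitochondrial matrix, and small heat shock proteins hold clients without ATP. Most are made in every cell and rise when heat shock factor 1 is released from the chaperones that restrain it, while the endoplasmic reticulum has its own programme, the unfolded protein response, with the luminal HSP70 BiP as its best known target.

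The study took whole thymus from female mice 5 weeks old, 2 h after an intravenous dose of 0.5 µg of peptide. One peptide was gp33, from a glycoprotein of lymphocytic choriomeningitis virus (LCMV), and the other was a control peptide that also binds the class I molecule Db. By its title the series asks about impaired deletion of CD8 T cells in the thymus of NOD mice, a strain that develops autoimmune diabetes. Total RNA was read on a whole-transcript Affymetrix array, the Mouse Gene 1.0 ST.

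The NOD.LCMV strain gave 3 thymuses with the control peptide and 3 with gp33, and the NOD.Ln82-LCMV strain gave 4 with the control peptide and 5 with gp33, which the labels call biological replicates. As background, LCMV in the strain names stands for a transgenic T-cell receptor that recognises gp33 on Db, so every group carries that receptor. The labels used here describe neither the receptor's promoter nor the Ln82 segment, and give no batch or scan date, so a batch that follows strain or peptide cannot be told apart from it. All 15 arrays had medians between 7.59 and 7.67 on the log2 scale, with the NOD.LCMV arrays from 7.63 upward, and correlations within a group over genes ran from 0.995 to 0.999. Defining markers of double-positive thymocytes were present in every group, with the mean of the 10 measured markers between 10.49 and 11.49. Precision is limited by how few arrays there are. In whole tissue, fewer cells of a type and less RNA per cell cannot be told apart.

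Promoter letters are given first, because heat shock factor 1 binds repeats of a short unit, nGAAn, in alternating orientation, and these letters separate the members into groups. The windows are RefSeq's, on build GRCm38.p6, each 300 bases long from 250 bases before to 50 bases after an annotated start. Of the 9 measured members, 7 had a window, and Hsp90aa1 and Hspa8 had none. Both strands were searched for GAANNTTC and TTCNNGAA, which hold 2 units, for GAANNTTCNNGAA, which holds 3 units and overlaps both, and for the endoplasmic reticulum stress element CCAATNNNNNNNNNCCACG. Over all 32817 windows, 15.1% held a 2-unit match, 0.603% a 3-unit match and 0.119% the stress element. A match is a description of the letters and not a site shown to be bound.

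Hspd1 and Hspe1, which encode HSP60 and its lid HSP10, sit head to head on chromosome 1 and share the stretch between them at chr1:55088034-55088101. Their starts lie 216 bases apart for one annotated Hspd1 start, while the other lies 95 bases inside Hspe1. The capitals mark a run of alternating units in which the 3-unit motif matches in both orientations with overlap. The run is 89 to 72 bases before the Hspe1 start. Read on the minus strand, it is 144 to 127 bases before the Hspd1 start that lies 216 bases away. The window of the other Hspd1 start held no match. The pair is shown because its 2 genes can be compared under one stretch of promoter:
Hspe1, plus strand: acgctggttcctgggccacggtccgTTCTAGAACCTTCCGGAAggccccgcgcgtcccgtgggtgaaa
Hspd1, minus strand: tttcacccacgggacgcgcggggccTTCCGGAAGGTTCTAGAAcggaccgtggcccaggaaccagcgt

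Hsph1, which encodes an HSP110 protein, had a 2-unit match upstream of its start (chr5:149636337-149636394, minus strand) and a 3-unit match just downstream of it (chr5:149636280-149636308, minus strand). Both of its annotated starts lie between the pair of matches, and the capitals mark the matching letters:
Hsph1, upstream: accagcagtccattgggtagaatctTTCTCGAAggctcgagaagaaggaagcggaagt
Hsph1, downstream: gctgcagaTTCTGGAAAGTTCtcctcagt

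Hspa5, which encodes BiP, had no heat shock unit pair in its window but held the endoplasmic reticulum stress element 65 to 47 bases before its start, in capitals below (chr2:34772000-34772068, plus strand). Only 39 of all windows held that motif, and none of the other members' windows did:
Hspa5: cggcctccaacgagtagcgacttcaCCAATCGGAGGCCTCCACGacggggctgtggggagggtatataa

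Dnaja1, a J-domain partner of HSP70, held 1 pair of units in 1 of its 3 windows (chr4:40722319-40722376, plus strand). Hspb1, the small heat shock protein HSP27, held 2 separate pairs (chr5:135887777-135887854, plus strand). Neither held the 3-unit motif, and Dnajb1, another J-domain partner, had no match to any of the letters in its 2 windows. The capitals mark the pairs:
Dnaja1: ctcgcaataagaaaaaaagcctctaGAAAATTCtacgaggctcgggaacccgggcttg
Hspb1: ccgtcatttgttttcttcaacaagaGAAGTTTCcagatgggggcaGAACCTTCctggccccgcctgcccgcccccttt

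The first comparison asked how the chaperone genes differed after gp33 in NOD.LCMV. Hspa5, Hsph1 and Hspd1 rose, by 1.40-fold, 1.38-fold and 1.25-fold. The means of 8 of the 9 members were higher with gp33, as were those of 35.6% of all genes, and Hspb1 was the exception. The 6 members other than Hspa5, Hsph1 and Hspd1 did not pass the test. A gene was called when its adjusted p in limma, over all 19938 genes, was under 0.05. The 3 members called, all higher, stand beside 19.8% of all genes called in either direction and 7.29% called higher. The median difference of the members was 0.20 log2 and that of all genes was -0.03. In 6 members no array of one group overlapped the other, as in 32.9% of all genes. Of all calls 36.9% were higher, or 47.2% after the arrays were centred on their medians.

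**Figure D1:**
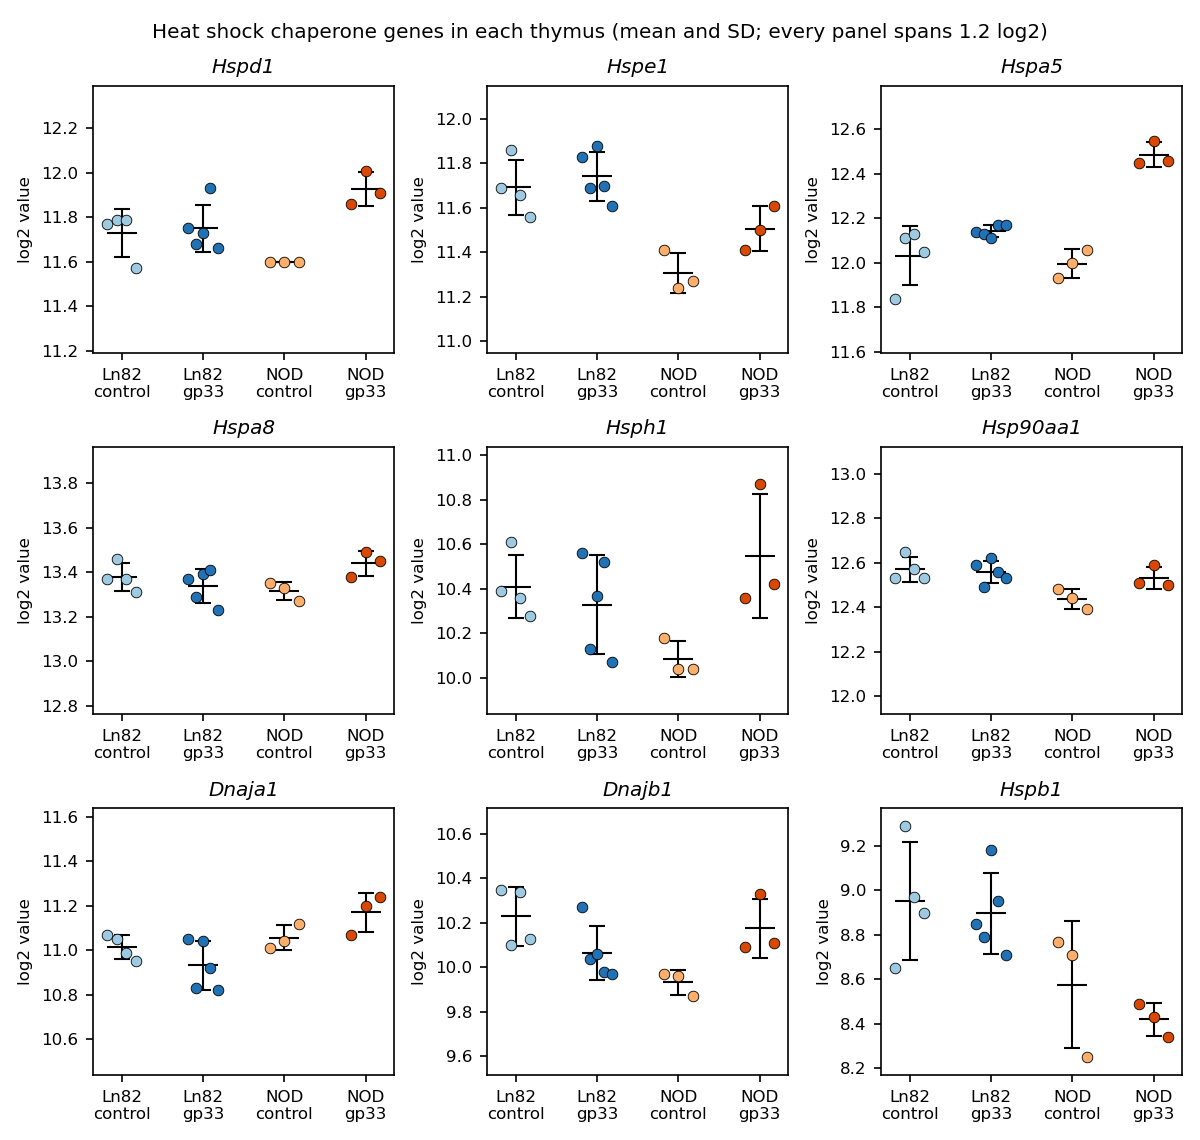
Log2 value of each measured chaperone gene (vertical axis, 1 panel a gene) in each thymus, by strain and peptide (horizontal axis, NOD for NOD.LCMV and Ln82 for NOD.Ln82-LCMV). Points are arrays, bars the mean and SD of 3 to 5 arrays. The 3 NOD.LCMV gp33 arrays stand above all the other arrays for Hspa5, and both NOD.LCMV groups lie mostly below the NOD.Ln82-LCMV groups for Hspe1.

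In the mitochondrial pair, Hspd1 (probe set 10375240) read 11.60 on each of the 3 NOD.LCMV arrays with the control peptide, and 11.86, 12.01 and 11.91 with gp33. Every gp33 array was above every control array, a difference of 0.33 ± 0.07 log2 (SE; 95% interval 0.17 to 0.48; limma adjusted p = 0.00406). A second Hspd1 probe set, 10354732, gave 0.46 ± 0.08 (limma adjusted p = 0.00105), also higher. Hspe1 (probe set 10455588) read 11.41, 11.24 and 11.27 with the control peptide and 11.41, 11.50 and 11.61 with gp33. Its lowest gp33 array equalled its highest control array, and the difference of 0.20 ± 0.08 was not called (interval 0.02 to 0.38; limma adjusted p = 0.116), nor was the 0.21 ± 0.09 of its other probe set.

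Hspa5 (probe set 10471586), whose product BiP folds secretory proteins and holds the sensors of the unfolded protein response, gave the most certain change of the members. It read 11.93, 12.00 and 12.06 with the control peptide and 12.45, 12.55 and 12.46 with gp33 in NOD.LCMV. The groups were well apart, by 0.49 ± 0.06 log2 (interval 0.35 to 0.63; limma adjusted p = 6.37e-05), and the call held without any one of the 15 arrays, with differences from 0.46 to 0.52.

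Among the cytosolic HSP70, HSP110 and HSP90 genes, Hsph1 (probe set 10535904) had the widest spread. With the control peptide it read 10.18, 10.04 and 10.04, and with gp33 10.36, 10.87 and 10.42. All gp33 arrays were higher, by 0.46 ± 0.14 (interval 0.16 to 0.77; limma adjusted p = 0.0304), but replicate 2 with gp33 was far above the other two. Without that array the difference was 0.30 and was not called (limma adjusted p = 0.162). Leaving out control replicate 2 or 3 gave 0.44 each time, also not called (limma adjusted p = 0.0943 and 0.0871).

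Hspa8 (probe set 10528021), the constitutive HSP70 of the cytosol, read 13.35, 13.33 and 13.27 with the control peptide and 13.38, 13.49 and 13.45 with gp33. Hsp90aa1 (probe set 10378848), the inducible cytosolic HSP90, read 12.48, 12.44 and 12.39 and then 12.51, 12.59 and 12.50. The groups of both genes were narrowly apart, and neither difference was called: 0.12 ± 0.06 for Hspa8 (limma adjusted p = 0.147) and 0.10 ± 0.05 for Hsp90aa1 (limma adjusted p = 0.209).

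The J-domain gene Dnajb1 (probe set 10573198), a classical heat shock gene, read 9.97, 9.96 and 9.87 with the control peptide and 10.09, 10.33 and 10.11 with gp33. Its groups did not overlap, and the difference of 0.24 ± 0.09 missed the threshold (interval 0.05 to 0.43; limma adjusted p = 0.0708). It passed in 3 of the other settings tried, with a second quantile normalization (limma adjusted p = 0.0450), a replicate block (0.0286) and without NOD.Ln82-LCMV gp33 replicate 1 (0.0403). Dnaja1 (probe set 10521587), which loads clients onto HSP70, read 11.01, 11.04 and 11.12 and then 11.07, 11.20 and 11.24. Its groups overlapped, at 0.11 ± 0.07 (limma adjusted p = 0.316).

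Hspb1 (probe set 10408928) was the one member with a lower mean after gp33. It read 8.77, 8.71 and 8.25 with the control peptide and 8.49, 8.43 and 8.34 with gp33, so the lowest array of all was a control. The groups overlapped and the difference of -0.16 ± 0.15 (interval -0.49 to 0.17) was not called (limma adjusted p = 0.610). It was -0.06 without control replicate 1, -0.09 without control replicate 2 and -0.32 without control replicate 3, never called.

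With 3 arrays against 3, the exact two-sided permutation test cannot go below p = 0.1, which the 6 members without overlap reached. Markers of other cells differed between the same groups. Of the 7 granulocyte markers 6 were called higher after gp33, with list means of 6.83 to 7.09 on the control arrays and 7.82 to 8.21 on the gp33 arrays, and 6 of the 10 double-positive thymocyte markers were called lower, with list means of 11.14 to 11.39 and 10.49 to 11.20. Their part in the chaperone differences was not tested.

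In NOD.Ln82-LCMV, gp33 left no chaperone gene past the test. Of the 9 members 3 had a higher and 6 a lower mean with gp33, beside 50.3% of all genes with a higher mean. No member's groups were free of overlap, and the median difference of the members was -0.04 log2. limma called 0 members, against 0.00502% of all genes (1 gene), and groups without overlap were seen in 1.51% of all genes. At an unadjusted p under 0.05 limma had 1 member, Dnajb1, and 1190 genes in all.

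Hspd1 read 11.77, 11.79, 11.79 and 11.57 with the control peptide and 11.75, 11.68, 11.73, 11.93 and 11.66 with gp33 in NOD.Ln82-LCMV, a difference of 0.02 ± 0.06. One control array was low and one gp33 array high, and the sign turned without either of them, to -0.03 in both cases. Hspa5 read 11.84, 12.11, 12.13 and 12.05, and then 12.14, 12.13, 12.11, 12.17 and 12.17. The 5 gp33 arrays lay within a narrow band at the top of the controls' range, and the difference was 0.11 ± 0.05 (interval -0.0020 to 0.23; limma adjusted p = 0.844; exact two-sided permutation p = 0.0397 over 126 splits, not adjusted). Without control replicate 1, the lowest array, the difference was 0.0473.

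Dnajb1 had a lower mean with gp33 in NOD.Ln82-LCMV, reading 10.35, 10.10, 10.34 and 10.13 with the control peptide and 10.27, 10.04, 10.06, 9.98 and 9.97 with gp33. Most gp33 arrays were below the lowest control, and 1 was as high as the controls, for a difference of -0.17 ± 0.07 that was not called (interval -0.32 to -0.01; limma adjusted p = 0.825; exact permutation p = 0.119). Hsph1 read 10.39, 10.61, 10.36 and 10.28 with the control peptide, and 10.56, 10.13, 10.37, 10.52 and 10.07 with gp33. Its gp33 arrays reached both above and below most controls, and the difference was -0.08 ± 0.12 (interval -0.33 to 0.17).

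The other members of this strain differed by 0.05 ± 0.07 (Hspe1), -0.01 ± 0.04 (Hsp90aa1), -0.04 ± 0.05 (Hspa8), -0.08 ± 0.06 (Dnaja1) and -0.06 ± 0.13 (Hspb1). Their intervals were all across 0, from -0.10 to 0.20 for Hspe1 to -0.33 to 0.21 for Hspb1. A rise in NOD.Ln82-LCMV as large as the 0.33 log2 of Hspd1 in NOD.LCMV lay outside the interval for Hspd1 itself (-0.11 to 0.15).

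**Figure D2:**
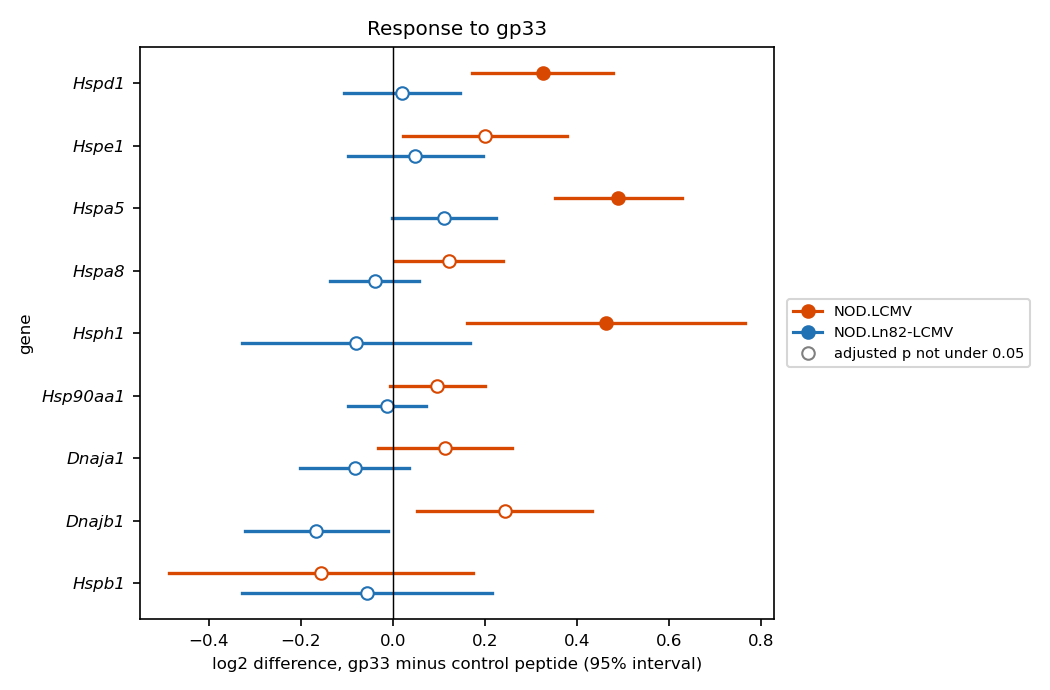
Log2 difference between gp33 and the control peptide (horizontal axis, with its 95% interval) for each chaperone gene (vertical axis) in NOD.LCMV and NOD.Ln82-LCMV, filled where limma's adjusted p was under 0.05. Hspd1, Hspa5 and Hsph1 are filled in NOD.LCMV, at 0.33, 0.49 and 0.46, and none in NOD.Ln82-LCMV.

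Whether the response to gp33 differed between the strains was tested directly, as the NOD.LCMV difference minus the NOD.Ln82-LCMV difference. The Hspa5 response was larger in NOD.LCMV, by 0.38 ± 0.08 log2 (interval 0.20 to 0.56; limma adjusted p = 0.00974), and the Dnajb1 response was more positive there, by 0.41 ± 0.12 (interval 0.16 to 0.66; limma adjusted p = 0.0381). The 2 members called, both higher, stand beside 8.73% of all genes called in either direction and 4.46% called higher. Of all such calls 51.1% were higher, or 65.5% with arrays centred on their medians.

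The Hspa5 difference held without any one of the 15 arrays, at 0.35 to 0.44. The Dnajb1 difference combined a difference of 0.24 in one strain with one of -0.17 in the other, neither of them called alone. It lost its call in 10 of the 15 fits without 1 array, namely without any of the 3 NOD.LCMV controls, without replicate 2 of NOD.LCMV with gp33, or in NOD.Ln82-LCMV without control replicates 1 or 3 or gp33 replicates 2, 3, 4 or 5, where it lay between 0.33 and 0.43 and its adjusted p reached 0.117. Hspd1 and Hsph1 had called rises in NOD.LCMV and none in NOD.Ln82-LCMV, but the differences of response were not called: 0.31 ± 0.09 for Hspd1 (limma adjusted p = 0.0546) and 0.54 ± 0.18 for Hsph1 (limma adjusted p = 0.0856). For Hspd1 the call turned on the choice of settings. It was made in 6 of the 8 other settings, among them the mean of both probe sets (0.39; limma adjusted p = 0.0202). With the replicate block it was not (limma adjusted p = 0.133). The second probe set alone gave 0.48 ± 0.11 (limma adjusted p = 0.0114). Of the 15 fits without 1 array, 2 gave a call. These left out array 4 of the NOD.Ln82-LCMV controls or of its gp33 group and gave 0.36 (limma adjusted p = 0.0158) and 0.35 (0.0130).

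The remaining differences of response were 0.20 ± 0.09 for Dnaja1, 0.16 ± 0.07 for Hspa8, 0.15 ± 0.11 for Hspe1, 0.11 ± 0.06 for Hsp90aa1 and -0.10 ± 0.20 for Hspb1, none of them called (limma adjusted p from 0.202 to 0.879). Hspe1 thus stood apart from its partner Hspd1 in size, 0.15 against 0.31, although the intervals overlap widely (-0.08 to 0.38 and 0.11 to 0.51) and the difference between the genes was not tested.

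With the control peptide, the strains were compared before any response to gp33. Hspe1 was lower in NOD.LCMV than in NOD.Ln82-LCMV, by 0.39 ± 0.08 log2 or 0.765-fold (limma adjusted p = 0.00557), and Dnajb1 was lower by 0.30 ± 0.08 or 0.814-fold (limma adjusted p = 0.0338). The means of 8 of the 9 members were lower in NOD.LCMV, while 55.1% of all genes had a higher mean there. Among the members Dnaja1 was the exception, at 0.04 ± 0.06, and after median centring it too was lower, at -0.03. Hspa5 turned from -0.04 to 0.0014 with a second quantile normalization. The median of all genes also changed sign with the normalization. It was 0.01 in the main fit, -0.05 with median centring and -0.04 with a second quantile normalization. The medians of the members were -0.13, -0.20 and -0.10 in the same order. The 2 members called, both lower, stand beside 10.3% of all genes called in either direction and 5.54% called lower. Of all such calls 46.3% were higher in NOD.LCMV, or 15.3% with median centring.

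For Hspe1 the 3 NOD.LCMV arrays read 11.41, 11.24 and 11.27 and the 4 NOD.Ln82-LCMV arrays 11.69, 11.86, 11.66 and 11.56, with a clear gap between the strains (exact two-sided permutation p = 0.0286, the smallest that 35 splits allow). Leaving out any one array kept the call, and the other Hspe1 probe set gave the same -0.39 (limma adjusted p = 0.00647). For Dnajb1 the arrays read 9.97, 9.96 and 9.87 against 10.35, 10.10, 10.34 and 10.13. Again no array overlapped, but in the test the call was lost without any one of the 3 NOD.LCMV arrays (limma adjusted p = 0.0659, 0.0794 and 0.149 in order) or without control 1 (0.0679) or 3 (0.109) of NOD.Ln82-LCMV.

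Hsph1 and Hsp90aa1 also showed no overlap between the strains, as did 19.6% of all genes, and both had the smallest exact p the design allows (0.0286), yet neither was called. Hsph1 differed by -0.32 ± 0.13 (limma adjusted p = 0.153) and Hsp90aa1 by -0.13 ± 0.05 (limma adjusted p = 0.0792), the latter called after median centring (-0.20; limma adjusted p = 0.00821). Hspb1 differed by -0.38 ± 0.14 with overlap (limma adjusted p = 0.125). Its 4 NOD.Ln82-LCMV control arrays read 8.65, 9.29, 8.97 and 8.90, and without replicate 1, the lowest, the difference was -0.48 and was called (limma adjusted p = 0.0366). Without NOD.LCMV control replicate 3, the lowest of that group, it was -0.21 (limma adjusted p = 0.553). Hspd1 (-0.13 ± 0.07), Hspa8 (-0.06 ± 0.05), Hspa5 and Dnaja1 were not called.

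After gp33 the members split in both directions between the strains. Hspa5 and Dnaja1 were higher in NOD.LCMV than in NOD.Ln82-LCMV, by 0.34 ± 0.06 and 0.24 ± 0.06 log2 (limma adjusted p = 0.000356 and 0.00802), while Hspb1 and Hspe1 were lower, with differences of -0.48 ± 0.14 and -0.24 ± 0.07 (limma adjusted p = 0.0176 and 0.0279). The 4 members called stand beside 27.0% of all genes called in either direction, 10.2% called higher and 16.8% called lower. Of all such calls 37.7% were higher, or 27.7% with median centring. In the same comparison 6 of 7 granulocyte markers were called higher, with list means of 7.82 to 8.21 against 6.71 to 7.13, and 6 of 10 double-positive thymocyte markers were called lower, with list means of 10.49 to 11.20 against 11.11 to 11.49. Their part in the members' differences was not tested. In 3 members, Hspa5, Dnaja1 and Hspb1, no array overlapped, as in 26.9% of all genes.

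For Hspa5 the NOD.LCMV arrays with gp33 started at 12.45 and the NOD.Ln82-LCMV arrays ended at 12.17 (exact two-sided permutation p = 0.0179, the smallest that 56 splits allow). For Dnaja1 the NOD.Ln82-LCMV arrays read 11.05, 10.83, 11.04, 10.92 and 10.82, all below the 11.07 of the lowest NOD.LCMV array but some only just. Its second probe set gave 0.19 ± 0.10, which was not called (limma adjusted p = 0.214), while the mean over both probe sets gave 0.21, which was called (limma adjusted p = 0.0447).

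For Hspe1 the NOD.Ln82-LCMV arrays read 11.83, 11.69, 11.88, 11.70 and 11.61 and met the NOD.LCMV arrays at 11.61. The Hspe1 call did not hold without gp33 array 1 (limma adjusted p = 0.143) or 2 (0.0813) of NOD.LCMV, or 1 (0.0616) or 3 (0.0672) of NOD.Ln82-LCMV. The lower Hspe1 value of NOD.LCMV was thus seen with both peptides, at -0.39 and -0.24.

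Hspb1 with gp33 read 8.85, 8.79, 9.18, 8.95 and 8.71 in NOD.Ln82-LCMV, above all 3 NOD.LCMV arrays, and its second probe set gave -0.45 (limma adjusted p = 0.0301). The call was lost without NOD.LCMV gp33 replicate 2 (limma adjusted p = 0.0514) or 3 (0.0718). Hspb1 is expressed in many stromal cells. In the same comparison 5 of 10 thymic epithelial, 3 of 7 fibroblast and 3 of 7 endothelial markers were called lower. So were 5 of 8 dendritic cell and macrophage, 3 of 5 B-cell and 1 of 6 adipocyte markers, with none called higher, beside 16.8% of all genes called lower. With the control peptide Hspb1 differed by -0.38, which was not called. In that comparison 0 of 7 fibroblast, 0 of 8 dendritic cell and macrophage and 0 of 6 adipocyte markers were called. There 1 of 10 thymic epithelial and 1 of 5 B-cell markers were called lower, and 2 of 7 endothelial markers higher. The list medians with the control peptide were -0.64 for B cells, -0.41 for adipocytes and -0.07 for dendritic cells and macrophages. They were -0.02 for thymic epithelium, 0.02 for endothelium and 0.06 for fibroblasts. List means with gp33 were 9.79 to 10.01 against 9.93 to 10.26 for thymic epithelium, 8.54 to 8.59 against 8.68 to 8.85 for fibroblasts, 8.18 to 8.26 against 8.35 to 8.50 for endothelium, and 8.15 to 8.60 against 8.41 to 9.63 for adipocytes. They were 7.46 to 8.02 against 8.36 to 8.92 for B cells and 8.20 to 8.40 against 8.41 to 8.70 for dendritic cells and macrophages. Of 9 skeletal muscle markers none was called. The part of these cells in the Hspb1 difference was not tested.

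**Figure D3:**
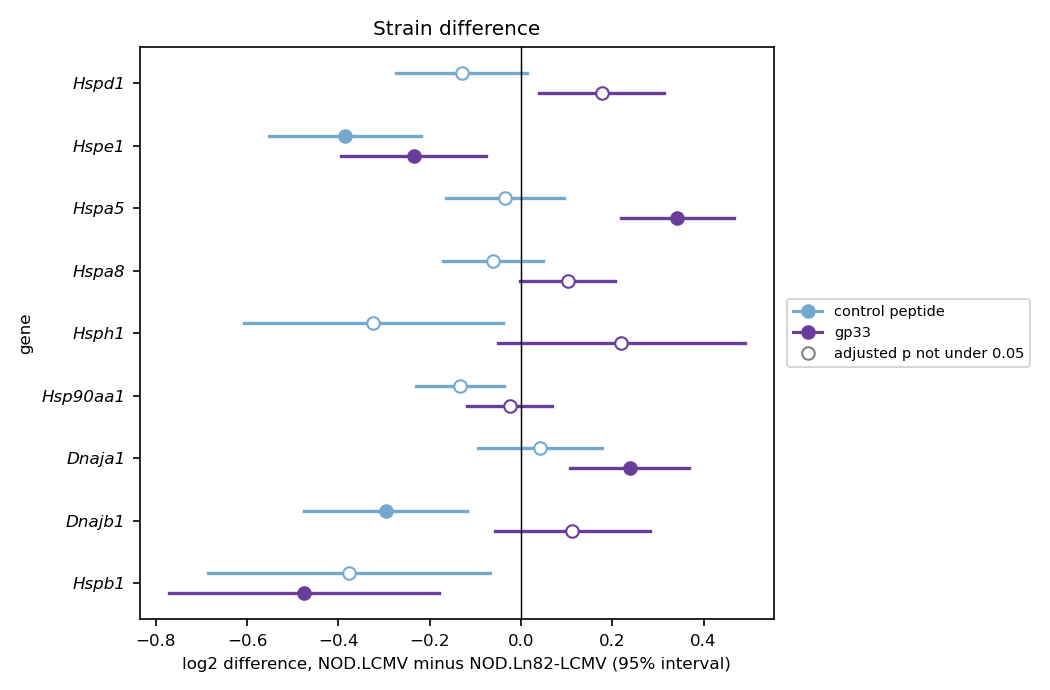
Log2 difference between NOD.LCMV and NOD.Ln82-LCMV (horizontal axis, with its 95% interval) for each chaperone gene (vertical axis) under each peptide, filled where limma's adjusted p was under 0.05. Hspe1 is filled below 0 under both peptides, at -0.39 and -0.24, and Hspa5 is filled at 0.34 with gp33 while its interval covers 0 with the control peptide.

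Each gene's 4 group means can be put in order, with neighbours told apart only where their fit was called. For Hspa5 the order was NOD.LCMV control (12.00 ± 0.07, SD, n = 3), NOD.Ln82-LCMV control (12.03 ± 0.13, n = 4), NOD.Ln82-LCMV gp33 (12.14 ± 0.03, n = 5) and NOD.LCMV gp33 (12.49 ± 0.06, n = 3), and only the last step was called. For Hspd1 it was NOD.LCMV control (11.60 ± 0, n = 3), NOD.Ln82-LCMV control (11.73 ± 0.11, n = 4), NOD.Ln82-LCMV gp33 (11.75 ± 0.11, n = 5) and NOD.LCMV gp33 (11.93 ± 0.08, n = 3), with no single step called. Its last step, 0.18 ± 0.06 between the strains with gp33 (limma adjusted p = 0.0546), was called in 5 of the 9 other settings, among them the mean over both probe sets (limma adjusted p = 0.0308), and on the second probe set alone (0.24; limma adjusted p = 0.0233). It was also called without array 4 of the NOD.Ln82-LCMV controls (limma adjusted p = 0.0283) or of its gp33 group (0.00852). Hspe1 ran differently, from NOD.LCMV control (11.31 ± 0.09, n = 3) and NOD.LCMV gp33 (11.51 ± 0.10, n = 3) up to NOD.Ln82-LCMV control (11.69 ± 0.12, n = 4) and NOD.Ln82-LCMV gp33 (11.74 ± 0.11, n = 5). Its steps between peptides of one strain were not called, and the middle step was not tested.

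Within groups, some arrays were high or low for several members at once. NOD.LCMV gp33 replicate 2 was the highest of its group for 6 of the 9 members and replicate 1 the lowest for 7, and NOD.Ln82-LCMV gp33 replicate 5 was the lowest of its group for 7. The last of these also had the lowest array weight in limma (0.282), a measure of how closely an array follows its group over all genes. After each group was centred on its own mean, 32 of the 36 pairs of members had a correlation above 0 over the 15 arrays, with a median of 0.41 and 7 pairs above 0.7. The share of all gene pairs above 0 was not computed.

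The closest pair was Hsph1 with Hspa8, at r = 0.86 after centring, and both followed Hsp90aa1 at 0.78. The small heat shock gene Hspb1 followed Hsp90aa1 as closely, at 0.79, and Hspa8 at 0.63. Hspd1 followed Hspa8 at 0.75, and so did Hspe1. Hspd1 and Hspe1, which share a promoter stretch, followed each other at 0.35, taken on the brightest probe set of each gene only. Hspa5 was apart from the cytosolic genes, with correlations from -0.20 with Dnajb1 to 0.24 with Hsp90aa1. These correlations describe 15 arrays that share a normalization.

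**Figure D4:**
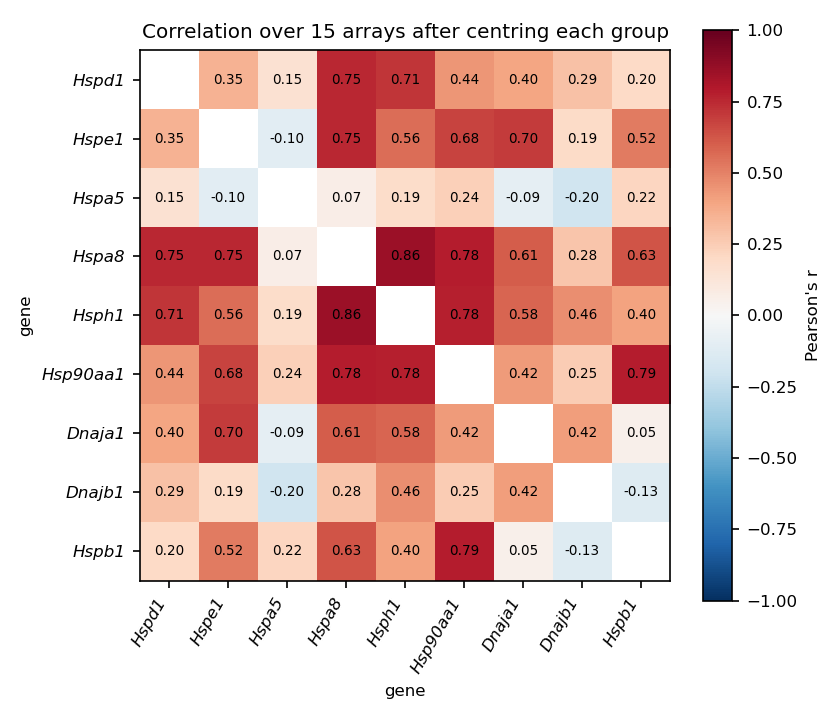
Pearson's r between each pair of chaperone genes (both axes) over 15 arrays, after each group was centred on its own mean. Hsph1, Hspa8 and Hsp90aa1 lie from 0.78 to 0.86 with one another, Hspb1 reaches 0.79 with Hsp90aa1, and the row of Hspa5 stays between -0.20 and 0.24.

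The genes most like each member over the 15 arrays, by Pearson's r of the log2 values, were found among all genes measured. Hspd1 was most like Cct6a (r = 0.92), Eif4e (0.92) and Uba6 (0.90), and Hsph1 most like Hspa8 (0.87), Eif4e (0.82) and St13 (0.82). Hspa5 was most like Wdr77 (0.98), Nr4a3 (0.97) and Trib1 (0.97), Hspe1 most like Cfdp1 (0.95), Lrrc41 (0.95) and Srsf10 (0.93), and Hspb1 most like Sgce (0.94), Stom (0.93) and Gstm3 (0.93). Hspa8 was most like Hsph1 (0.87), Snx16 (0.86) and Ccnt1 (0.86), Hsp90aa1 most like Ppia (0.86), Polr2f (0.84) and Ide (0.84), Dnaja1 most like Rasa2 (0.92), Slc22a5 (0.90) and Top1 (0.90), and Dnajb1 most like Ipo13 (0.86), Srprb (0.82) and Mex3a (0.80).

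Within groups, after centring, the genes most like a member were mostly others. Hspd1 was then most like Tcea1 (0.93), Cacybp (0.92) and Mtf2 (0.91), and Hspa8 most like Chordc1 (0.92), Ahnak (0.91) and Ubfd1 (0.90). Cacybp and Chordc1 encode HSP90 co-chaperones or relatives of them. Hspa5 was most like Psmd1 (0.91), Wdr77 (0.89) and Osbpl3 (0.89), and Wdr77 was the one gene in both of its lists. Hsph1 was most like Klf6 (0.89), Hspa8 (0.86) and Stk38l (0.83). For the remaining members the first gene was Cyp20a1 for Hspe1 (0.91), Ddhd1 for Hsp90aa1 (0.91), Wdr82 for Dnajb1 (0.89), Zfp664 for Dnaja1 (0.90) and Aplp2 for Hspb1 (0.89). Of all members only Hspa8, with Chordc1, had a gene of the chaperone lists as its first.

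Beyond the members, 8 lists of chaperone genes held 101 genes, of which 98 were measured. In NOD.LCMV, 23 of the 98 were called higher after gp33 and 4 lower, with a median of 0.10 log2 beside -0.03 for all genes. Of all genes 7.29% were called higher there and 19.8% in either direction. The counts of the single lists below stand beside the same shares, and several are near the share in either direction. In NOD.Ln82-LCMV limma called 0 of the 98, with a median of 0.00075, and 1 of all genes. The difference between the responses was called for 15, beside 8.73% of all genes, and 14 of the 15 were larger in NOD.LCMV. That count of 15 ranged from 5 to 16 when single arrays were left out. It was 6 without NOD.LCMV control replicate 1, 8 without control replicate 2, 5 without NOD.LCMV gp33 replicate 2, 9 without gp33 replicate 3 and 7 without NOD.Ln82-LCMV control replicate 3. With array weights it was 29, of which 23 were larger in NOD.LCMV, and with the replicate block it was 9, of which 8 were.

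The chaperonin TRiC, which folds actin and tubulin in the cytosol, and prefoldin, which hands it those clients, had the most calls for their number. Of the 14 genes, 8 were called higher in NOD.LCMV and none lower, with a median of 0.16, against a median of -0.0013 in NOD.Ln82-LCMV. Cct8 rose by 0.31 ± 0.05, Cct3 by 0.28 ± 0.05, Cct6a by 0.27 ± 0.05 and Pfdn2 by 0.21 ± 0.04 (limma adjusted p from 0.000415 to 0.00169). All 4 responses were larger than in NOD.Ln82-LCMV in the test of the difference, but these genes were picked by their NOD.LCMV calls, which share arrays with that test. The count fell to 5 without any one of the 3 NOD.LCMV gp33 arrays, and likewise without control replicate 1 or 2 of that strain.

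Of the 9 measured HSP70 and HSP110 genes other than the members, 3 were called higher in NOD.LCMV and the other 6 were not called. These were Hspa4l, an HSP110 relative (0.60 ± 0.10, limma adjusted p = 0.000522), Hspa4, another HSP110 (0.28 ± 0.05), and Hspa14, which works at the ribosome (0.30 ± 0.06). The same 3 had a larger response than in NOD.Ln82-LCMV, in a test that shares the NOD.LCMV arrays by which they were picked. Hspa1a, the gene most often used to read a heat shock response, was not called, at 0.16 ± 0.11 (limma adjusted p = 0.370).

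Of 13 measured HSP90 co-chaperone genes 3 were called higher in NOD.LCMV: Ptges3, which encodes p23 (0.29 ± 0.06), Ppid, a cyclophilin (0.27 ± 0.08), and St13, which encodes the HSP70 partner Hip (0.23 ± 0.08, limma adjusted p = 0.0489). The count fell to 1 without NOD.LCMV control replicate 1 or 3 and was 5 with median centring. St13 lost its call without any one of 12 arrays, its adjusted p reaching 0.223, and Ppid did so in NOD.LCMV without controls 1 or 3 or gp33 array 3, reaching 0.0796.

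Of 11 further J-domain genes, Dnaja2 (0.23 ± 0.05) and Dnajc2 (0.17 ± 0.04) were called higher, the latter not without NOD.LCMV control replicate 2 (limma adjusted p = 0.0540). Of 11 mitochondrial chaperone and protease genes, Hspa9, the HSP70 of the matrix (0.35 ± 0.07), and Clpp, the subunit of a matrix protease (0.33 ± 0.04), were called higher beside Hspd1, and 4 of the 11 were called without NOD.Ln82-LCMV gp33 replicate 4.

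Beside Hspa5, the list of endoplasmic reticulum chaperones and unfolded protein response genes had 4 of 21 called higher in NOD.LCMV and 1 lower, with a median of 0.11. The transcription factor gene Atf4 rose by 0.41 ± 0.06, Herpud1, which helps clear misfolded proteins, by 0.37 ± 0.06, and the sensor gene Atf6 by 0.27 ± 0.06, while Dnajc3, the gene of an inhibitor of the kinase PERK, fell by 0.29 ± 0.06 (limma adjusted p from 0.000223 to 0.00327). Calr was the remaining one called higher, at 0.18 ± 0.05, and 16 of the 21 did not pass. With array weights, or with only the groups compared in the fit, 6 were called higher and 2 lower.

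Of 8 small heat shock protein genes other than Hspb1, Hspb6 was called lower (-0.42 ± 0.11) and none higher, with a list median of -0.21. The Hspb6 call did not hold without replicate 1 (limma adjusted p = 0.0598) or 2 (0.0535) of the NOD.LCMV controls, which left none of the list called. In contrast, 3 were called lower when NOD.LCMV control replicate 3 was left out, 3 when replicate 5 of NOD.Ln82-LCMV with gp33 was, and 2 without NOD.LCMV gp33 replicate 1. Of 11 heat shock factor, HSF1 regulator and BAG genes, Bag5 was called higher (0.18 ± 0.05) and Hspbap1 (-0.49 ± 0.09) and Bag4 (-0.16 ± 0.05) lower. When control 2, control 3 or gp33 array 2 of NOD.LCMV was left out, Hspbap1 alone of these 3 kept its call. Bag4 lost its call in 10 of 15 fits without 1 array and in 5 of 9 other settings (limma adjusted p up to 0.166). Bag5 lost its call in 4 of 15 and 2 of 9 (limma adjusted p up to 0.144).

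**Figure D5:**
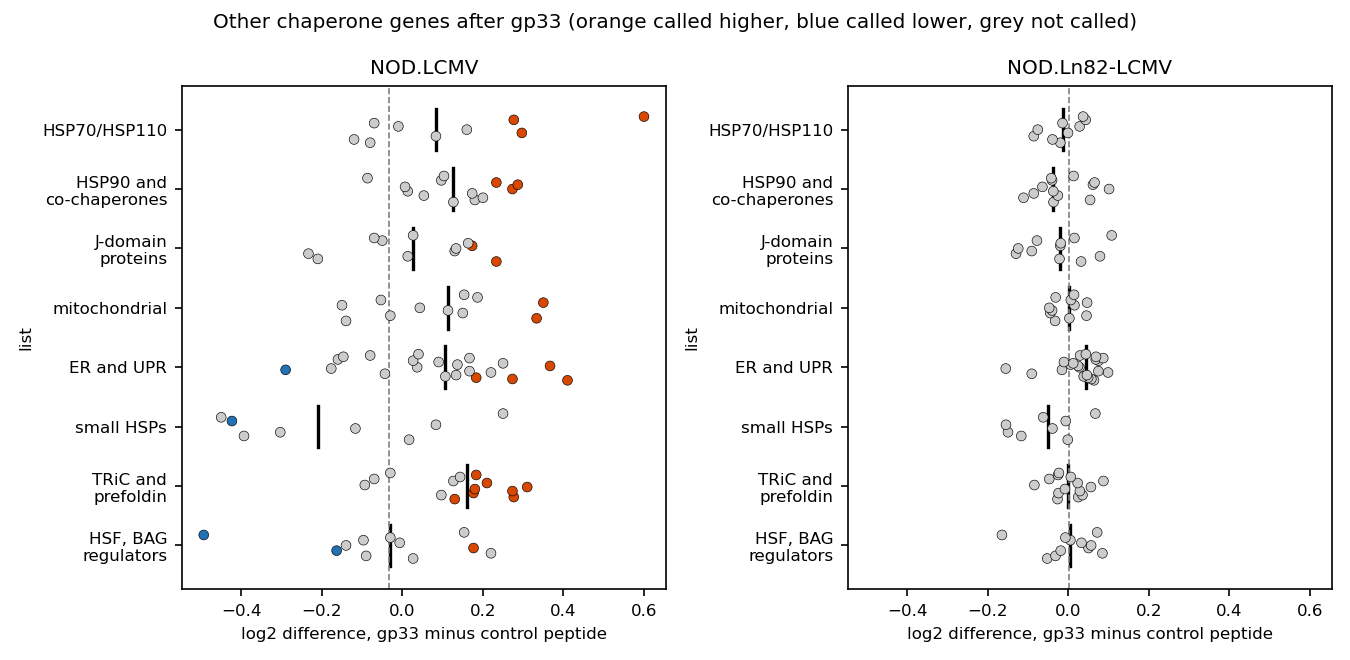
Log2 difference between gp33 and the control peptide (horizontal axis) of each measured gene of 8 chaperone lists (vertical axis) in each strain, 1 point a gene, with the list median as a bar and the median of all genes as a dashed line. In NOD.LCMV 23 points are called higher and 4 lower, and in NOD.Ln82-LCMV none is called.

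The same 98 genes were compared between the strains. With the control peptide their median difference was -0.07 in the main fit, beside 0.01 for all genes. The median of all genes was -0.05 after median centring. With this peptide 1 gene was called higher and 12 lower in NOD.LCMV, beside the 10.3% of all genes called. That count of 13 fell to 8 without NOD.LCMV control replicate 3, and was 20, all lower, with median centring and 29, of which 23 were lower, with array weights. With gp33, 21 were called higher and 14 lower, beside 10.2% and 16.8% of all genes, with a median of 0.01 beside -0.02. The strain comparisons and the responses share arrays, so these counts are not independent of each other.

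Several of these genes were read by more than 1 probe set, and Hsp90aa1, Hspa8, Hspd1 and Hspe1 have near-identical processed copies elsewhere in the genome. Which copies a probe set also reads was not tested, for these genes, for Hspb1 or for Dnaja1, and the brightest probe set, taken for the main value, may be one that reads a copy. After gp33 in NOD.Ln82-LCMV the Dnaja1 probe sets gave -0.08 (10521587, the brighter) and 0.05 (10503995), neither called. The 3 Hsp90aa1 probe sets gave 0.09 to 0.10 after gp33 in NOD.LCMV and the 3 Hspa8 probe sets 0.12 to 0.19, none of them called. Hspa5, Hsph1 and Dnajb1 had 1 probe set each.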

How the data were processed

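Whole-thymus RNA of 15 mice was measured on Affymetrix Mouse Gene 1.0 ST arrays. The deposited values are on a log2 scale, per the submitters' processing notes from RMA in Affymetrix Expression Console 1.1, which corrects background, quantile-normalizes and summarizes probes into 35556 probe sets. The annotation gave exactly 1 symbol to 21789 probe sets, several to 1621 and none to 12146. Probe sets with 1 symbol were kept, the one with the highest mean for each of 999 genes with several.

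Group means were fitted to all 19938 genes with limma 3.58.1 in R 4.3.3 (11 residual and 3.91 prior degrees of freedom) and p-values adjusted by Benjamini-Hochberg. The script was tested on simulated data. Single values were also compared by exact permutation over arrays. No 2 arrays were identical. The members, lists and tests were chosen with earlier results of these data known. Named genes were the members, up to 4 called genes with the smallest adjusted p of each pathway list (or the 1 with the smallest), the 3 genes most correlated with each member, and cell type markers where a result touched them; Hspa1a and Calr were named after their values were seen. Alternatives changed the normalization, dim-gene filter, probe set rule, variance model, array weights, arrays fitted, replicate block and single arrays. Control and gp33 mice of NOD.Ln82-LCMV share numbers in their titles, but these did not pair them. Hsf1 and list genes without a probe set of their own are not analysed here.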

Additional observations from a re-analysis of the deposited data

Results flagged for a closer look

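Among 18 sets of values for 1 member in a group of 4 or 5 arrays, 1 array stood far from the others, and chance alone sets such an array apart in about 1 of 20 groups. Hspd1 read 11.57 on NOD.Ln82-LCMV control replicate 4, where the other 3 arrays read 11.77, 11.79 and 11.79, so its gap was 0.909 of the group's whole range.

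The response to gp33 differed between NOD.LCMV and NOD.Ln82-LCMV, in limma's test of the difference itself, for 2 members and 13 named genes of the chaperone lists. Of all genes 8.73% were called in that test. The named list genes were picked by their calls in NOD.LCMV, whose arrays also enter the test. A larger response there was thus favoured in advance, and their count is not independent support. The members were Hspa5 (0.38, limma adjusted p = 0.00974) and Dnajb1 (0.41, limma adjusted p = 0.0381). Among HSP70 and HSP110 genes the differences were 0.56 for Hspa4l, 0.30 for Hspa14 and 0.23 for Hspa4 (limma adjusted p = 0.0127, 0.0233 and 0.0233). For the chaperonin and prefoldin genes they were 0.25 for Cct8, 0.25 for Cct3, 0.24 for Cct6a and 0.19 for Pfdn2 (limma adjusted p = 0.0239, 0.0348, 0.0339 and 0.0202). The mitochondrial genes Clpp and Hspa9 differed by 0.33 and 0.30 (limma adjusted p = 0.00141 and 0.0362), and the J-domain gene Dnajc2 by 0.19 (limma adjusted p = 0.0451). Of the endoplasmic reticulum list, Atf4 differed by 0.35, Herpud1 by 0.34 and Dnajc3 by -0.27 (limma adjusted p = 0.0134, 0.00721 and 0.0326). In these sums a positive value means a more positive response in NOD.LCMV.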

How the results depend on the processing

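The 45 member differences were recomputed under the other settings and without single arrays, which gave 1071 values. Of these, 1010 kept direction and side of the threshold, 24 lost a call, 26 gained one and 11 turned sign. Only differences called in the main fit could lose a call. Leaving out an array of neither group compared left a difference between 2 groups unchanged, so the 1010 include values that could hardly move. All 24 losses came from leaving out 1 array. The count of members called ranged, without single arrays, from 2 to 4 for gp33 in NOD.LCMV, from 1 to 3 for the difference between the responses, from 1 to 2 for strain with the control peptide and from 2 to 5 for strain with gp33, and was 0 in every fit for gp33 in NOD.Ln82-LCMV. With array weights 5 members were called lower in NOD.LCMV with the control peptide. A replicate block over the shared numbers gave 4, 0, 2, 2 and 4 members called in these comparisons, taken as gp33 in NOD.LCMV, gp33 in NOD.Ln82-LCMV, difference, control and gp33. Same-numbered mice correlated at -0.23 to 0.12, and 1 of 4 controls was matched best by its own number, so the pairing by number was not used.

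Sign turned, always between uncalled values and with the cause not tested, for Hspd1 in NOD.Ln82-LCMV (-0.0005 with the mean over its probe sets, -0.0191 with array weights, -0.0333 to 0.0425 without single arrays), Hsp90aa1 there (-0.0275 to 0.0147), Hspb1 there (-0.16 to 0.056) and the Hspb1 difference between responses (-0.26 to 0.00067). It also turned for Hspa5 between strains with the control peptide (0.0014, second quantile normalization), Dnaja1 there (-0.025, median centring) and Hsp90aa1 between strains with gp33 (0.0287, second quantile normalization). The difference between the responses could not be fitted with only the groups compared, which are all 4 groups.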
